A study of Mus musculus with 9 samples.

Results

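Leukocyte adhesion receptors were followed at the transcript level in splenic germinal center (GC) B cells with 2, 1 or 0 floxed Foxo1 alleles. The genes were the integrin alpha subunits Itga4, Itgal and Itgax, the integrin beta subunits Itgb1, Itgb2 and Itgb7, and the hyaluronan receptor gene Cd44. Every probe set that the platform annotation gave to 1 of these 7 genes was taken, which came to 20 of the 45101 probe sets on the Affymetrix Mouse 430.2 array. Of the 20, 16 passed the filter on dim signal, which asked for a signal at or above the median of its array on at least 3 of 9 arrays. Itga4 had 5 probe sets, of which 4 passed, Itgal 2 of 2, Itgb1 5 of 6, Cd44 3 of 4, and Itgb2 and Itgb7 had 1 each, which passed. The only probe set of Itgax did not pass.

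The KO group carried FOXO1f/f and Cg1-Cre, the HET group FOXO1f/+ and Cg1-Cre, and the WT group FOXO1+/+ and Cg1-Cre, with 3 arrays in each. Cg1-Cre is a Cre recombinase expressed from the immunoglobulin gamma 1 constant region locus, which acts in most GC B cells, and the WT controls carried it too. The mice were 10 weeks old, received sheep red blood cells on day 0 and day 5, and gave spleens on day 12, from which B220 high, PNA high, CD95 high cells were sorted. The labels give 1 animal per array, whereas the design text of the series speaks of pools of spleen cells. FOXO1 is a forkhead transcription factor that leaves the nucleus when PI3K and AKT are active.

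Integrins are heterodimers of an alpha and a beta chain that B cells use to hold on to other cells and to matrix. The alpha4 chain pairs with beta1 to bind VCAM-1 and fibronectin, or with beta7 to bind MAdCAM-1, while the alphaL and alphaX chains pair with beta2 and bind ICAM ligands and complement fragments. In the GC, follicular dendritic cells display VCAM-1 and ICAM-1 to B cells, and in the mouse spleen the alphaL beta2 and alpha4 beta1 integrins hold marginal zone B cells in place. CD44 binds hyaluronan and is linked to actin through ezrin, radixin and moesin.

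In KO cells the transcripts of both tested alpha subunits rose, Itga4 by 1.31-fold and Itgal by 1.25-fold relative to WT. The 3 beta subunit genes and Cd44 did not pass the test, with changes between 0.892-fold and 1.13-fold. HET cells lay close to WT for Itga4 and Itgal. Of the 6 tested genes, 2 were called higher and 0 lower in KO vs WT, where 11.9% of all 10331 tested genes were called in either direction with 6.09% higher and 5.85% lower. The median log2 difference of the 6 was 0.15, against 0.011 over all tested genes. Calls were made with limma on log2(signal + 2.09) at a Benjamini-Hochberg adjusted p under 0.05 over all tested genes, with the brightest passing probe set standing for a gene.

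**Figure D1:**
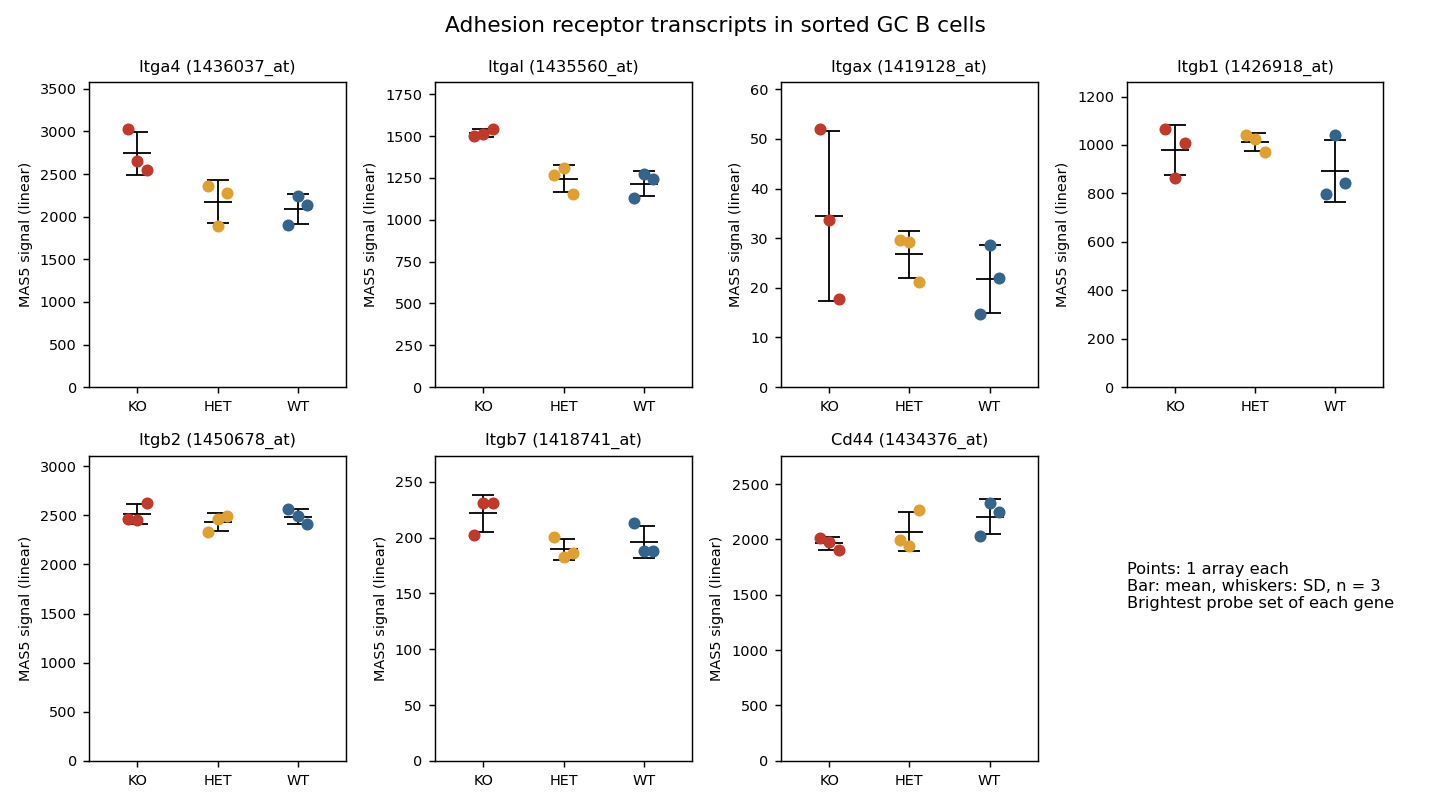
MAS5 signal (linear scale, vertical axis from 0) of the brightest probe set of each of the 7 genes in KO, HET and WT arrays. Points are arrays, and bars give the mean and SD of 3 arrays. All 3 KO arrays lie above all HET and WT arrays for Itga4 and Itgal, while Itgb2 stays between 2329 and 2630 on all 9 arrays.

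The targeted gene was checked first. Foxo1 averaged 1034 ± 335 in KO, 3564 ± 77.9 in HET and 5449 ± 159 in WT (SD, n = 3). These values are from the brightest of its 4 probe sets, and the others are not given here. On that probe set KO stood at 19.0% and HET at 65.4% of WT. Whether that probe set lies in the deleted segment was not analysed here. The median signal of an array was 47.4 to 48.0 in KO and 42.9 to 45.0 in HET and WT, a gap that moves the smaller differences. With each array centred on its median, neither Itga4 (0.27, limma adjusted p = 0.0807) nor Itgal (0.20, limma adjusted p = 0.105) passed in KO vs WT, and 398 genes were called higher and 1683 lower, against 629 and 604 without that centring. Under it the median log2 difference of all tested genes was -0.11 in place of 0.011. The level of Xist, a transcript of female cells, was high on 2 KO, 1 HET and 2 WT arrays, so each group held animals of both sexes by that measure. Transcript levels in sorted cells do not tell fewer cells of a type from less RNA per cell.

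Itga4 encodes the alpha4 chain. Its brightest probe set, 1436037_at, had signals of 3031, 2652 and 2547 in KO, 2361, 1889 and 2282 in HET, and 1903, 2246 and 2133 in WT. Every KO array lay above every HET and WT array, and HET and WT overlapped. The KO vs WT log2 difference was 0.39 (SE 0.10, limma adjusted p = 0.0211), a fold of 1.31 with a 95% interval of 1.13 to 1.52. KO vs HET gave 0.34 and just missed the threshold (limma adjusted p = 0.0503), and HET vs WT gave 0.053 (limma adjusted p = 0.998). Groups that share arrays enter these comparisons, so they are not independent of each other.

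The 3 other passing Itga4 probe sets also gave positive KO vs WT values. On 1421194_at the signals were 361, 329 and 424 in KO, 288, 233 and 226 in HET, and 279, 257 and 293 in WT, again with no KO array inside the range of the others. In a fit over all 23344 passing probe sets, in which 7.65% were called in KO vs WT and 5.58% in KO vs HET, this probe set gave 0.42 in KO vs WT (limma adjusted p = 0.0987) and 0.57 in KO vs HET (limma adjusted p = 0.0353), a call lost in 10 of 21 alternative fits (adjusted p up to 0.122). The dimmer 1450155_at and 1456498_at gave KO vs WT differences of 0.28 and 0.33 with overlapping arrays (limma adjusted p = 0.474 and 0.603). The fifth probe set, 1427615_at, lay between 4.75 and 17.5 on all arrays, below the median of each.

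The Itga4 call in KO vs WT was lost when any of 3 arrays was left out. Its adjusted p in limma was 0.0826 without KO replicate 1, 0.0826 without WT replicate 1 and 0.0561 without WT replicate 3, and 0.159 with the mean of the Itga4 probe sets, while the log2 difference stayed between 0.27 and 0.44 in all 23 alternative fits.

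The RefSeq promoter window of Itga4 is shown because it is the called gene for which a window could be matched, beside that of Itgb7, whose product is an alternative partner of the alpha4 chain. Each window runs from 250 bases before to 50 bases after the gene start, given 5′ to 3′ on the strand of the gene, at chr2:79255176-79255475 (+) for Itga4 and chr15:102231886-102232185 (-) for Itgb7 in GRCm38.p6. Capitals mark the core CACCC, or GGGTG on the other strand, which Krüppel-like factors recognise.
Itga4: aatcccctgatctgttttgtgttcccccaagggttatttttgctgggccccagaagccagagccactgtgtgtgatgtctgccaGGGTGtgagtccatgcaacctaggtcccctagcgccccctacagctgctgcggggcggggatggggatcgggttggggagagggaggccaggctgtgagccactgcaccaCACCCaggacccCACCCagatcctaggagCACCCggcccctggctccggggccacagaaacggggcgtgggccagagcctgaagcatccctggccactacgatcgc
Itgb7: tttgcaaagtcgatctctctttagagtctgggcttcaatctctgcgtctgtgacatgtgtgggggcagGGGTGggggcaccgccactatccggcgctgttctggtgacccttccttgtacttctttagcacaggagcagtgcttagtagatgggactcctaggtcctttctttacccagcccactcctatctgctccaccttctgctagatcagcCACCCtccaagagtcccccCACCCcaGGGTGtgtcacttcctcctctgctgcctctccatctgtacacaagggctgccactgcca

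Windows were matched for 5 of the 7 genes, namely Itga4, Itgax, Itgb1, Itgb7 and Cd44. The FOXO core GTAAACA, or TGTTTAC on the other strand, occurred in 0 of these 5 windows and in 3.65% of all 32851 windows in the table. The core CACCC, on either strand, occurred 4 times each in the Itga4 and Itgb7 windows, 2 times in that of Itgb1 and 0 times in those of Itgax and Cd44. It occurred at least once in 57.5% of all windows and at least 4 times in 3.10%. The windows printed are those of the 5 with the most matches, and that of Itgb1, the other partner of alpha4, is not printed. The motifs were searched separately and may share letters where they meet. A match is a description of the letters, and its absence says only that these letters are not in the window.

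Itgal encodes the alphaL chain of the integrin that binds ICAM-1. Its brightest probe set, 1435560_at, had signals of 1499, 1511 and 1543 in KO, 1267, 1311 and 1154 in HET, and 1129, 1271 and 1246 in WT. The 3 KO arrays were close together and above all 6 others. Itgal rose in KO vs WT by 0.32 on the log2 scale (SE 0.076, limma adjusted p = 0.0157), a fold of 1.25 with a 95% interval of 1.11 to 1.40. It also rose in KO vs HET, by 0.29 (limma adjusted p = 0.0336), which made it the only 1 of the 6 tested genes called there, 1 higher and 0 lower. Of all genes, 9.01% were called in KO vs HET, 4.56% higher and 4.45% lower. HET vs WT gave 0.033 (limma adjusted p = 0.998).

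On the dimmer Itgal probe set 1425367_at, signals were 132.8, 141.9 and 165.7 in KO, 121.2, 93.7 and 111.2 in HET, and 122.0, 115.5 and 107.1 in WT. KO arrays again lay above the rest, with a KO vs WT difference of 0.34 that did not pass (limma adjusted p = 0.264). The Itgal call of KO vs WT was lost without WT replicate 1 (limma adjusted p = 0.0691), and that of KO vs HET without KO replicate 1, 2 or 3 or HET replicate 1 or 3 (limma adjusted p = 0.0670, 0.0767, 0.0752, 0.0667 and 0.118).

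Itgax encodes the alphaX chain, known as CD11c, a marker of dendritic cells that some B cells also carry. Its probe set 1419128_at had signals of 52.0, 33.7 and 17.7 in KO, 29.7, 29.3 and 21.2 in HET, and 14.8, 28.6 and 21.95 in WT. It was below the median of its array on 8 of 9 arrays, the exception being KO replicate 1, so it was not among the tested genes. Fitted without the filter, its KO vs WT log2 difference was 0.54 with a 95% interval of -0.40 to 1.48 (limma adjusted p = 0.598).

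Among the beta subunits, Itgb2 showed the least spread between arrays. Its probe set 1450678_at had signals of 2464, 2449 and 2630.5 in KO, 2329, 2466 and 2496 in HET, and 2560.3, 2489 and 2416 in WT, with full overlap of the groups. The KO vs WT log2 difference was 0.015 with a 95% interval of -0.11 to 0.14 (limma adjusted p = 0.914). That interval leaves out the rise measured for Itgal, whose product pairs with beta2. It bears on Itgb2 alone, from 1 probe set, and does not test whether the 2 transcripts changed unequally. With each array centred on its median, the Itgb2 difference was -0.11 (limma adjusted p = 0.234).

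Itgb1, which encodes the common partner chain of many alpha subunits, had signals of 1067, 862 and 1008 in KO, 1040.5, 1023 and 969.7 in HET, and 797, 1040.1 and 841 in WT on 1426918_at. WT replicate 2 was as high as the KO and HET arrays, and the groups overlapped. The KO vs WT difference was 0.14 with a 95% interval of -0.10 to 0.38 (limma adjusted p = 0.480). The 4 other passing probe sets gave values between -0.15 and 0.23, with both signs, and 0 of the 5 was called in limma (0 at an unadjusted p under 0.05). Some of these were dim. 1426920_x_at was below the array median on 2 arrays of each group, and 1426919_at on 1 KO, 2 HET and 3 WT arrays. Their SEs were 0.39 and 0.32, so they say little of Itgb1. Probe set 1438119_at read below 5 on every array.

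Itgb7 encodes the chain that with alpha4 forms the gut-homing integrin. It had signals of 202, 231.4 and 231.1 in KO, 200.4, 182 and 186 in HET, and 213, 188 and 188 in WT on 1418741_at. The KO arrays lay above the HET arrays and overlapped with WT through WT replicate 1. The log2 difference was 0.17 in KO vs WT, with a 95% interval of -0.12 to 0.46 (limma adjusted p = 0.461), and 0.22 in KO vs HET (limma adjusted p = 0.348).

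**Figure D2:**
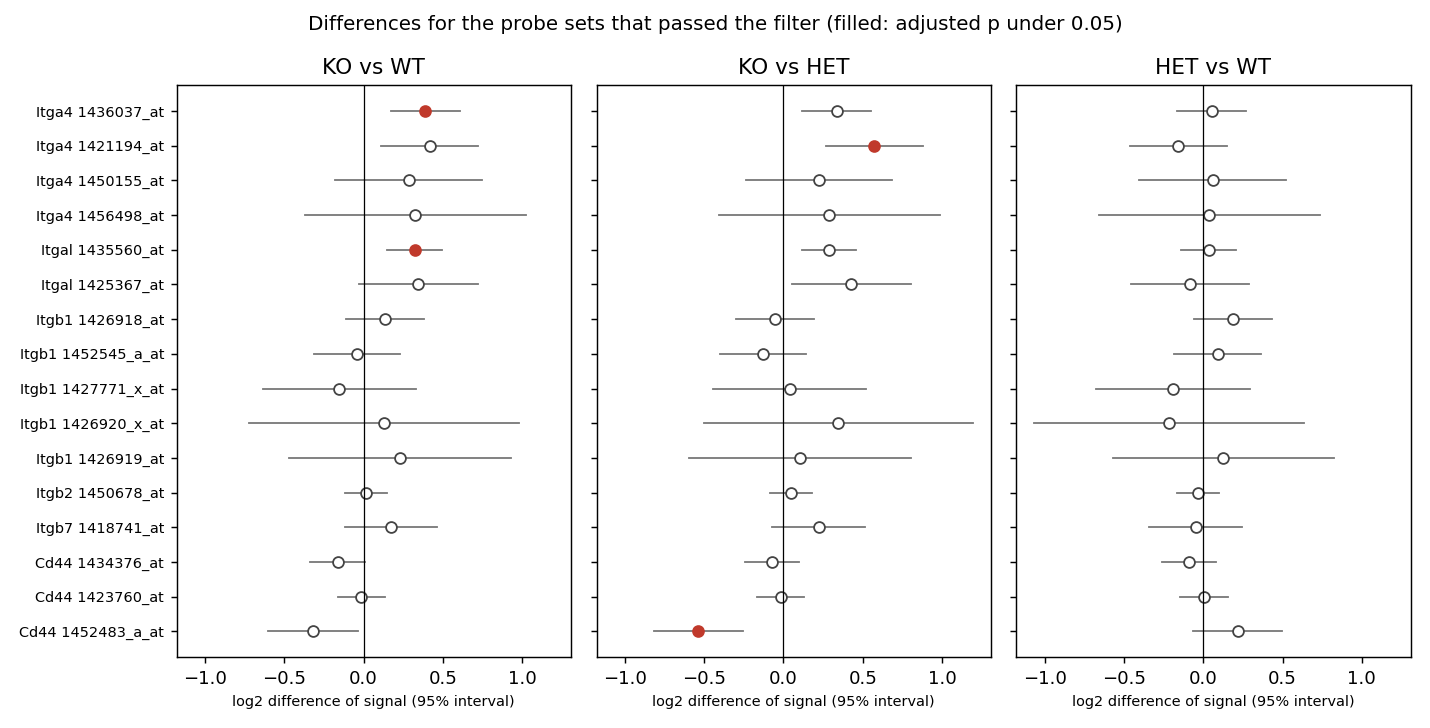
Log2 difference of signal (horizontal axis, with 95% interval) of the 16 passing probe sets in KO vs WT, KO vs HET and HET vs WT, from the fit over all passing probe sets. Filled points have an adjusted p under 0.05. All passing Itga4 and Itgal probe sets lie right of 0 in KO vs WT, from 0.28 to 0.42, and no probe set is filled in HET vs WT.

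Cd44 was read by 3 passing probe sets that did not give 1 answer. The brightest, 1434376_at, had signals of 2013, 1979 and 1900 in KO, 1999, 1940 and 2268 in HET, and 2031, 2332 and 2250 in WT. KO arrays lay below WT arrays by a narrow margin at WT replicate 1, and the difference of -0.16, with a 95% interval of -0.33 to 0.0019, did not pass (limma adjusted p = 0.200). It passed when each array was centred on its median (-0.28, limma adjusted p = 0.0265).

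The probe set 1423760_at gave nearly the same signal in all groups, 1907 ± 103 in KO, 1930 ± 60.0 in HET and 1925 ± 86.0 in WT (SD, n = 3). The third, 1452483_a_at, had signals of 229, 275 and 227 in KO, 361, 329 and 372 in HET, and 306, 331 and 276.1 in WT. Here KO was below both other groups, narrowly so for WT, and HET overlapped with WT. In KO vs HET its log2 signal fell by 0.54 (SE 0.13, limma adjusted p = 0.0317), whereas the KO vs WT value of -0.32 did not pass (limma adjusted p = 0.164).

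The call of 1452483_a_at was lost in 6 of 21 alternative fits. They were those without KO replicate 1 or 3 or HET replicate 1, 2 or 3 and the fit on the 2 groups alone, with adjusted p up to 0.101 in limma. Which Cd44 transcript forms each probe set detects was not analysed here, and signals of different probe sets are not on 1 scale.

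Across the 16 passing probe sets, 4 had every KO array above every WT array and 2 had every KO array below, where 15.4% and 11.1% of all passing probe sets did so. The 4 were both Itgal probe sets and the 2 brightest of Itga4, and the 2 were Cd44 probe sets. In KO vs HET, 5 were separated upward and 1 downward, where 13.7% and 10.7% of all passing probe sets were. In HET vs WT 0 of the 16 were separated in either direction, where 4.89% and 4.49% of all were. By adjusted p in limma, 2 of the 16 were called higher and 0 lower in KO vs WT, where 3.96% and 3.69% of all were. In KO vs HET 1 was called higher (Itga4) and 1 lower (Cd44), where 2.78% and 2.79% of all were. In HET vs WT 0 were called, where 0.00428% of all were. The 2 calls of KO vs WT, those of the brightest Itga4 and Itgal probe sets, were each lost in 8 of 21 alternative fits over probe sets (adjusted p up to 0.114 and 0.147).

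HET vs WT asks whether 1 floxed allele changed these transcripts. Limma called 0 of the 6 genes, where it called 0.00968% of all genes, 1 gene in number. At an unadjusted p under 0.05 it also gave 0 of 6, the smallest being 0.112 for Itgb1. All 23 alternative fits called 0 as well. The HET vs WT differences lay between -0.092 for Cd44 and 0.19 for Itgb1, and the 95% intervals of Itga4 and Itgal ran from -0.16 to 0.26 and from -0.13 to 0.20. Those intervals take in part of the KO rises, so a smaller rise in HET was not detectable with 3 arrays a group.

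Whether an alpha chain transcript changed more than that of its partner was tested on the log2 difference between the 2 signals of each array. Itgal minus Itgb2 averaged -0.73 ± 0.038 in KO, -0.97 ± 0.13 in HET and -1.03 ± 0.13 in WT (SD, n = 3). All KO arrays lay above all HET and WT arrays. The KO minus WT value was 0.31 (exact two-sided permutation p = 0.10, the smallest that 3 against 3 arrays can give), and the KO minus HET value 0.24 (exact p = 0.10).

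Itga4 minus Itgb1 averaged 1.49 ± 0.14 in KO, 1.10 ± 0.19 in HET and 1.23 ± 0.12 in WT (SD, n = 3). KO was above HET on every array (0.39, exact permutation p = 0.10) but overlapped with WT (0.25, exact permutation p = 0.20). Itga4 minus Itgb7 differed by 0.22 between KO and WT with overlapping arrays (exact permutation p = 0.50), and Itgb7 minus Itgb1 by 0.036 (exact permutation p = 0.70). Itgax minus Itgb2, which rests on the dim Itgax probe set, overlapped in all 3 comparisons, and no value is given. Over the 15 comparisons of 5 pairs the smallest exact permutation p was 0.50 after Benjamini-Hochberg adjustment. With 3 against 3 arrays no pair could have passed 0.05, so these tests do not settle whether partners changed unequally.

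**Figure D3:**
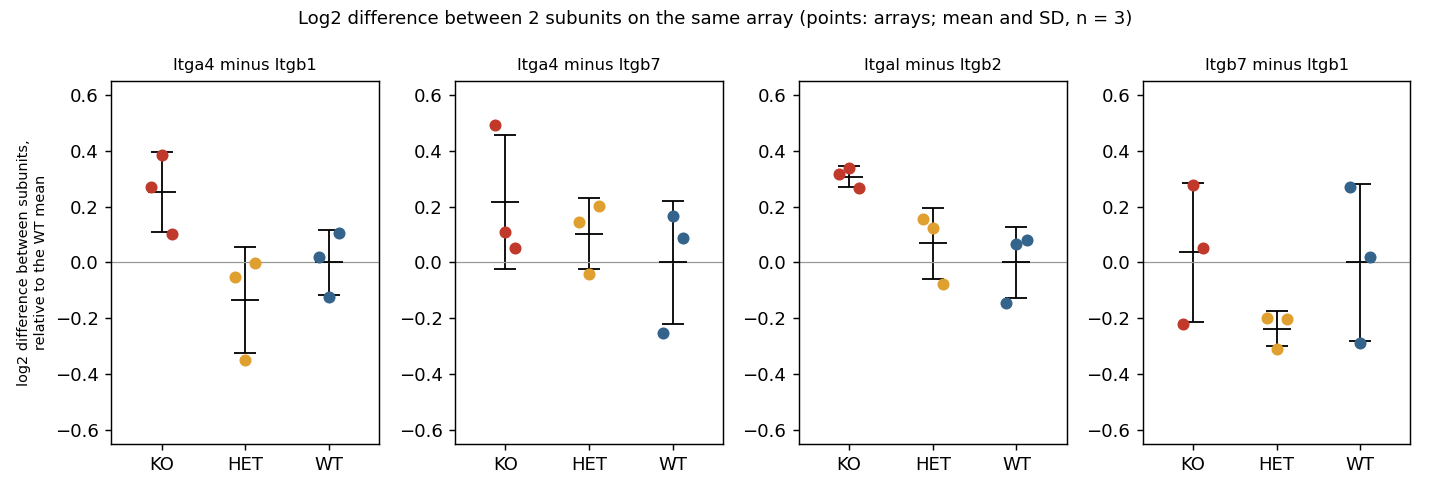
Log2 difference between 2 subunit transcripts on the same array, drawn relative to the WT mean of each pair (vertical axis, log2 units). Points are arrays, and bars give mean and SD of 3 arrays. For Itgal minus Itgb2 the 3 KO arrays lie above all others, while KO and WT overlap in the other pairs.

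The genes whose pattern over the 9 arrays was nearest to Itga4, by the root mean square difference of log2 signals after centring each gene, were Kidins220 (0.071), Ylpm1 (0.078) and Cbr1 (0.079). Nearest to Itgal were Ell2 (0.048), an elongation factor gene of plasma cells, Papss1 (0.049), which makes the sulfate donor, and Sertad2 (0.054). Itga4 and Itgal themselves differed by 0.14, which put Itgal at rank 240 of 10330 genes by nearness to Itga4, and Itga4 at rank 1150 by nearness to Itgal. Itgb7 was nearer to Itgal, at rank 833. A gene with no change over the arrays would lie 0.209 from Itga4 and 0.158 from Itgal. Itgb2, which was not called, lay 0.157 from Itgal. The distances of Itga4 and Itgb7 to Itgal are therefore little below that of a flat gene. Itga4 and Itgal were both taken because they were called higher in KO, so part of their nearness was set by that choice. The measure describes 9 arrays only.

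Among the other integrin subunits, Itgb3 fell and Itgav rose in KO. Their products pair as the alphaV beta3 integrin. Itgb3 averaged 1600 ± 394 in KO, 2471 ± 164 in HET and 2925 ± 136 in WT (SD, n = 3), a KO vs WT difference of -0.90 (SE 0.14, limma adjusted p = 0.00147) that was called in all 23 alternative fits. Itgav averaged 5074 ± 544 in KO, 4142 ± 311 in HET and 4161 ± 27.6 in WT, a rise of 0.28 (limma adjusted p = 0.0336) that was lost in 9 of 23 alternatives, among them those without KO replicate 1 or 3 or any WT replicate (adjusted p up to 0.171). The other 5 of 7 tested subunits did not pass, among them Itga6 (-0.36, limma adjusted p = 0.133) and Itgae (0.68, limma adjusted p = 0.251). The shares of all genes called were 6.09% higher and 5.85% lower. The 11 further subunits on the array were too dim to be tested.

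Of 5 tested integrin ligands, 2 rose and 3 did not pass, where 6.09% of all genes were called higher. Sema7a, whose product binds beta1 integrins, rose by 0.75 to 4718 ± 365 in KO, against 2802 ± 239 in WT (SD, n = 3, limma adjusted p = 4.37e-05). Fn1, the fibronectin gene, was below the array median on all WT arrays, so it passed the filter only through arrays of the other groups. It was at least 1.52-fold higher in KO (limma adjusted p = 0.0442). That call was lost in 12 of 22 alternatives (limma adjusted p up to 0.133), among them those without any 1 of the KO arrays, HET replicate 2 or WT replicate 2 or 3. Icam1 and Icam2, ligands of the alphaL integrin that B cells also display, gave 0.00088 and -0.014 (limma adjusted p = 0.996 and 0.934).

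Of 24 tested genes of inside-out activation, the route that switches integrins to their binding form, 3 rose, 2 fell and 19 did not pass, with a median of -0.0086 against 0.011 over all genes. Of all tested genes, 6.09% were called higher and 5.85% lower. With each array centred on its median, 2 of the 24 rose and 5 fell. Sipa1 (0.28, limma adjusted p = 0.00701, lost at 0.0868 with that centring) and Sipa1l1 (0.71, limma adjusted p = 0.00260) encode proteins that turn off RAP GTPases, and Flna (0.34, limma adjusted p = 0.00306) encodes filamin A, which competes with talin for beta chain tails. Itgb1bp1, which encodes a binder of the beta1 tail, fell by 0.29 (limma adjusted p = 0.0193), a call lost without KO replicate 2 or 3 or WT replicate 1. Rasa3, which encodes a RAP inhibitor of platelets, fell by 0.24 (limma adjusted p = 0.0393), lost in 9 of 23 alternatives. Sharpin and Rap1gap, which encode further inhibitors of this route, gave -0.00067 and 0.0047 (limma adjusted p = 0.996 and 0.995). Talin and kindlin-3, which bind beta chain tails to activate them, gave 0.028 for Tln1 and 0.030 for Fermt3 (limma adjusted p = 0.845 and 0.848).

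Of 26 tested genes of adhesion complexes and integrin signaling, 7 rose, 1 fell and 18 did not pass, where 6.09% and 5.85% of all genes were called higher and lower. The median was 0.15. Tns3, a tensin gene, rose by 1.84 (SE 0.31, limma adjusted p = 0.00202), and Parvg, which encodes the blood cell parvin, by 0.35 (limma adjusted p = 0.0101). The Parvg call was lost with each array centred on its median and with the mean of probe sets (limma adjusted p up to 0.0751). Zyx and Plcg2 rose by 0.87 and 0.22 (limma adjusted p = 0.0270 and 0.0203), calls lost in 6 of 22 and 5 of 23 alternatives. The arrays whose absence ended a call were KO replicate 2 and any 1 of the WT arrays for Zyx, and KO replicates 1 and 3 and WT replicate 1 for Plcg2. Without any 1 of the KO or WT arrays, 3 or 4 genes rose and 0 or 1 fell, and with each array centred on its median, 2 rose and 4 fell.

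Of 16 tested membrane proteins that associate with integrins, 4 rose, 0 fell in limma and 12 did not pass, beside the same 6.09% and 5.85% of all genes. The median was 0.17. The tetraspanin genes Tspan32 (0.81, limma adjusted p = 2.94e-04), Cd9 (1.00, limma adjusted p = 0.00918) and Tspan33 (0.60, limma adjusted p = 0.0286) rose, as did Plaur (1.08, limma adjusted p = 0.0159), the urokinase receptor gene. Without KO replicate 1 or 2 or WT replicate 1 or 3, 2 rose. Without probe sets of shared suffix (_x_at, _s_at, _a_at), 1 of 11 rose and 1 fell, and Tspan32 was no longer called (limma adjusted p = 0.110). With each array centred on its median, 3 rose and 1 fell. The Plaur call was lost without KO replicate 1 or 2 or WT replicate 1 or 3. That of Tspan33 was lost in 9 of 22 alternatives. They were those without KO replicate 1 or 2 or any 1 of the WT arrays, and those with quantile normalization, median centring, no filter or the mean of probe sets. Of 14 tested genes around CD44, 1 rose and 13 did not pass, while with each array centred on its median 1 rose and 2 fell. It was St3gal1, a sialyltransferase gene, at 1.29 (limma adjusted p = 0.00121). The actin linker genes gave 0.11 for Ezr, 0.39 for Rdx and 0.068 for Msn (limma adjusted p = 0.342, 0.0776 and 0.382).

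Of 13 tested transcription factor genes reported as regulators of leukocyte adhesion genes, 2 rose, 1 fell and 10 did not pass. The shares over all genes were 6.09% called higher and 5.85% lower. Klf3, which encodes a repressor of beta7 integrin expression in mouse B cells, rose by 0.99 (SE 0.18, limma adjusted p = 0.00287), and Runx3 by 0.44 (limma adjusted p = 0.0263). Zeb2 fell by 0.99 (limma adjusted p = 0.0486), a call lost in 13 of 23 alternatives, among them those without any 1 array other than KO replicate 1. Klf2, which sustains beta7 integrin expression in mouse B cells, gave 0.11 (limma adjusted p = 0.764). The Runx3 call was lost without KO replicate 2 or any 1 of the WT arrays. It was also lost with quantile normalization and with each array centred on its median.

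**Figure D4:**
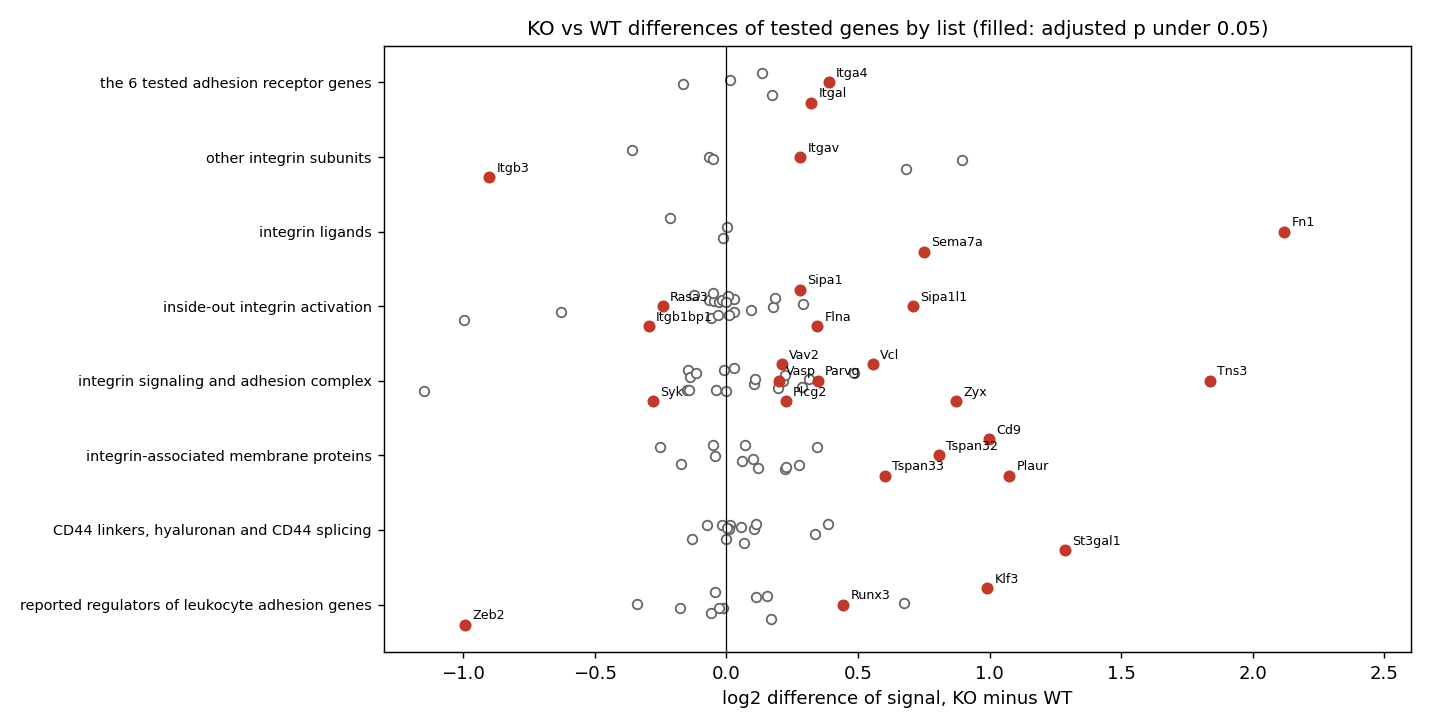
KO vs WT log2 difference of signal (horizontal axis) of the 6 tested adhesion receptor genes and of the tested genes of 7 adhesion lists. Filled and named points have an adjusted p under 0.05. Itgb3 (-0.90) and Zeb2 (-0.99) stand left of 0, while Tns3 lies at 1.84. Fn1 is drawn at its fitted value, although it was below the array median on all WT arrays and has only a lower bound.

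Levels of other cell types were read beside these results, since T cells and myeloid cells carry alphaL and alpha4 integrins as well. The summed signal of 27 myeloid markers was 2751 to 3634 in KO, 1258 to 3161 in HET and 927 to 2048 in WT. In KO 5 of 11 tested myeloid markers rose, where 6.09% of all genes were called higher. The count was 2 without KO replicate 1 or WT replicate 2 or 3, 3 without KO replicate 2 or 3, and 6 of 9 without WT replicate 1. Of the 27, 14 were below the array median on all arrays, among them Itgam and Cd14. Of the 5 that rose, Tyrobp had signals of 304, 274 and 265 in KO, 139, 84.2 and 213 in HET, and 99.0, 90.8 and 63.6 in WT. Cd68 had 620, 623 and 455 in KO, 343, 327 and 325 in HET, and 336, 388 and 334 in WT. Both were called in all 23 alternative fits. The calls of Csf1r, Lyz1 and Lyz2 were lost in 10 of 23, 9 of 22 and 4 of 23. The sum of 17 T cell markers was 391 to 529 in KO, 445 to 640.3 in HET and 526 to 633 in WT, and 10 of the 17 were below the array median on all arrays, Cd3d, Cd3g and Cd4 among them. Cd247 and Lat were above it on all 9. The sum of 13 dendritic cell markers was 4154 to 5342 in KO, 4538 to 5057 in HET and 4351 to 4577 in WT. Fscn1 alone gave 2472 to 3440 of it, so the sum says little of the other markers. Of 5 tested dendritic cell markers, 1 rose and 0 fell in KO, and 1 or 2 rose with 1 array left out. Sirpa, called in all 23 alternative fits, had signals of 986, 794 and 842 in KO, 694, 660 and 711 in HET, and 611, 536 and 521 in WT. The part of myeloid, T and dendritic cells in the Itga4 and Itgal results was not tested.

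Markers of other B cell states moved as well. Of 10 marginal zone B cell markers, 9 rose in KO, where 6.09% of all genes were called higher, and 6 rose without KO replicate 1 or 2 or WT replicate 2 or with the 2 groups alone. The markers had a summed signal of 22046 to 23976 in KO, 16503 to 17772 in HET and 16734 to 17212 in WT. Of 8 tested plasma cell genes, 6 rose, and under median centring 6 rose and 1 fell. Of 8 tested naive and follicular B cell genes, 0 rose and 4 fell, where 5.85% of all genes were called lower. Of 13 tested B cell and GC identity genes, 3 rose and 1 fell, where 6.09% and 5.85% of all genes did. The balance turned under median centring of the arrays, where 1 rose and 3 fell. Leaving out WT replicate 2 gave 1 that rose, and leaving out WT replicate 3 gave 5. Their part in the adhesion receptor results was not tested either.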

How the data were processed

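The authors made the values with MAS5 (named in the submitters' processing notes, version not given in the sources used here). The deposited values are 1 intensity (signal) per probe set on a linear scale, with a mean of 500 on every array after trimming 2% at each end. RNA was amplified with a NuGEN kit, per the labels' protocols. Of 45101 probe sets, 34958 had 1 gene symbol. Signals were taken as log2(signal + 2.09), with the 10th percentile of all signals as offset, which understates changes of dim probe sets. Models over all 9 arrays were fitted with limma 3.58.1 (eBayes with trend) in R 4.3.3, once with 1 probe set per gene and once with all 23344 passing probe sets, and tested on simulated data. The number of arrays limits the precision. Arrays were numbered within a group in order of deposition. The members, gene lists, tests and alternatives were chosen with earlier results of these data known. The rule for named genes was every member with all its probe sets, in each adhesion list the 4 genes at most that ranked lowest by KO vs WT adjusted p, the 3 genes nearest in pattern to each called member, and Foxo1. It was not applied to the lists of cell types and B cell states. Other genes, and counts of arrays left out of lists, were chosen after their values were seen. Promoter sequences are from RefSeq (GRCm38.p6). Coordinates are given only for the promoter windows printed, in that build. Protein sequences were not used here.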

Additional observations from a re-analysis of the deposited data

How the results depend on the processing

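The gene-level results were recomputed under 14 other settings and without each of the 9 arrays, the arrays left out being given as ranges. Calls of single probe sets had 21 such alternatives, and partner differences, pattern ranks and counts of separated arrays had none. Genes called in KO vs WT numbered 1233, 2081 with each array centred on its median and 769 to 1180 with 1 array left out (769 without WT replicate 2 or 3). In KO vs HET they numbered 931, and 543 to 893 with 1 array left out (543 without HET replicate 2, 611 without HET replicate 3). In HET vs WT there was 1, and 3 with robust eBayes, array weights or the 2 groups alone, and 1 to 3 with 1 array left out. Of the 6 adhesion genes, 2 were called in KO vs WT, but 1 with median centring (Cd44, lower), with the mean of probe sets or without the eBayes trend, and 0 to 2 with 1 array left out (0 without WT replicate 1). In KO vs HET 1 was called, but 2 with the offset of 16, quantile normalization, the stricter filter, no shared-suffix probe sets or robust eBayes, 0 with median centring, no trend or the 2 groups alone, and 0 to 2 with 1 array left out. For Itga4 KO vs WT, the values that missed the threshold were 0.27 with median centring, 0.35 with the mean of probe sets and 0.39 without trend, and leaving out arrays gave 0.32 to 0.44. For Itgal it was 0.20 with median centring, and leaving out arrays gave 0.27 to 0.36. Cd44 KO vs WT passed at -0.28 with median centring. Uncalled values changed sign as follows. Median centring gave -0.11 for Itgb2 KO vs WT and -0.048 for Itgb2 KO vs HET. The mean of probe sets gave HET vs WT values of 0.043 for Cd44, -0.0021 for Itga4, -0.025 for Itgal and -0.00072 for Itgb1, and 0.062 for Itgb1 KO vs HET. Leaving out arrays gave HET vs WT ranges of -0.014 to 0.15 for Itga4, -0.019 to 0.086 for Itgal and -0.089 to 0.0097 for Itgb7, KO vs HET values of -0.12 to 0.037 for Itgb1, and KO vs WT values of -0.018 to 0.035 for Itgb2. The cause of these changes was not tested. No paired analysis was possible because the numbers in the labels are not shared between genotypes.

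The 3 arrays a group set the precision, and the exact tests could not go below 0.10. Signals near the array median or below it, that of Itgax among them, limit what can be said of those genes. The labels do not say that arrays were run in batches, and batches were not analysed here. If the animals of a group were pooled, p-values would measure the spread between pools.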
